A study of Mus musculus with 4 samples.

Results

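Expression of 38 genes of endoplasmic reticulum (ER) stress and protein secretion was examined in tumour-associated macrophages from mouse gastrointestinal stromal tumours (GIST), a sarcoma of the gut wall. The genes were taken by function: sensors and transcription factors of the unfolded protein response, ER chaperones and protein isomerases, ER-associated degradation, targets of the integrated stress (amino acid) response, and the machinery that moves new proteins into the ER. Of the 38 genes, 37 had a probe set annotated to 1 gene symbol, out of 12393 such genes on the array, and each was read from its brightest one. Of these, 34 were bright enough to be tested, among 8145 tested genes. Ern1, Trib3 and Chac1 lay below the signal filter, and Sec61g was represented only by a probe set shared with the genes Gm11575 and Gm10177.

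The imatinib group was macrophages from tumours of GIST mice whose drinking water held imatinib, a kinase inhibitor that blocks Kit and also Pdgfr, Abl and Csf1r, at 600 mg/L, and the vehicle group was macrophages from tumours of control GIST mice. Treatment lasted 2 weeks and each group had 8 mice, whose sorted cells were combined within the group and measured on 2 Affymetrix arrays; the markers used for the sort are not given in the labels. The driver allele, strain and age of the mice are not named in the labels, which also do not say whether all animals share them. The design text calls the arrays of a group duplicates of a pool and the titles call them biological replicates, so the p-values reflect array-to-array spread, possibly technical.

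The ER folds membrane and secreted proteins. When unfolded proteins build up, the sensors IRE1 (encoded by Ern1), PERK (Eif2ak3) and ATF6 raise the transcription factors XBP1 and ATF4 and, through them and through cleaved ATF6, the genes for chaperones, degradation and redox enzymes. ATF4 also answers to amino acid shortage, and macrophages use the same pathway to support cytokine secretion and phagocytosis.

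The genes moved little and in both directions. Of the 34 tested, 5 were higher with imatinib (14.7%, against 6.80% of all tested genes) and 3 were lower (8.82%, against 8.73% of all tested genes), by limma with a Benjamini-Hochberg adjusted p below 0.05 over all genes. The 8 calls made up 23.5% of the genes, where 15.5% of all tested genes were called. The share lower was near that of all genes. With 1 array left out, 3 were higher without imatinib array 1, vehicle array 1 or vehicle array 2, 1 was lower without imatinib array 1 and 0 were lower without vehicle array 1 (limma; Ppp1r15a, Ssr4 and Herpud1 stayed called in each such fit). Ppp1r15a, Ssr4, Herpud1, Sec61b and Spcs2 rose, and Creld2, Atf4 and Manf fell. The median log2 difference, imatinib minus vehicle and computed on signal + 32, was 0.01 over the 34 genes and -0.02 over all tested genes. Only Ppp1r15a differed by 1.5-fold or more (2.94% of the genes, against 11.6% of all tested genes). Signals of the groups did not overlap for 19 genes (55.9%, against 56.0% of all tested genes), with both imatinib signals above both vehicle signals for 10 and below them for 9.

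**Figure D1:**
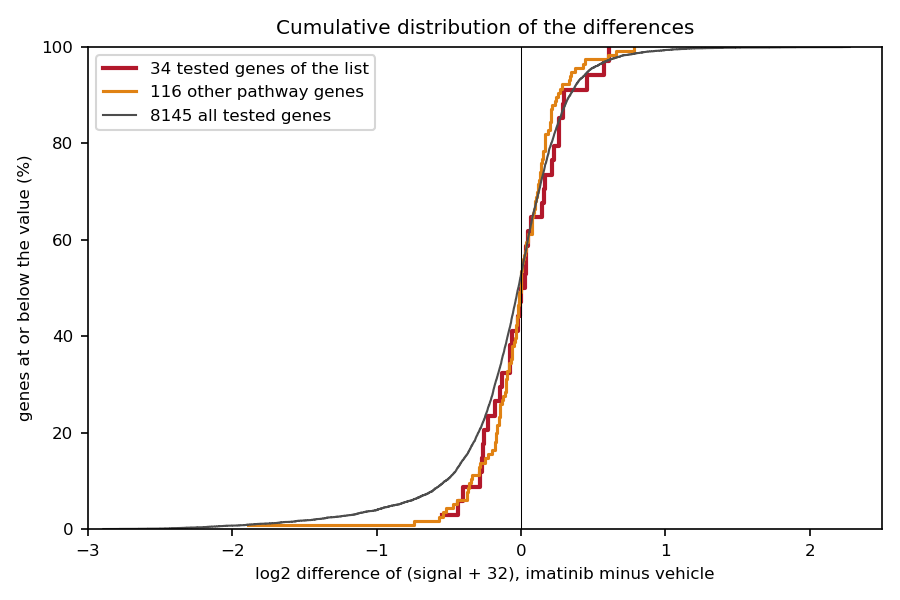
Cumulative share of genes (y axis, %) at or below each log2 difference, imatinib minus vehicle (x axis), for the 34 tested genes of the ER stress and secretory list, 116 other pathway genes and all 8145 tested genes. The list runs from -0.55 to 0.61, and the far larger set of all tested genes runs from -2.89 to 2.28.

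These directions depend on how the arrays are scaled. Of the 34 differences, 17 were positive on the deposited scale, 15 under quantile normalization and 26 with equal array medians. When the mean of 14 macrophage markers was set equal on all arrays, which lowers each difference by 0.45, 3 were positive. The markers themselves differed, from -0.09 (C1qb) to 1.16 (Mertk) on the deposited scale. One of them, Itgam (0.97), had a vehicle mean of 76.3, below the filter signal of 79.75, and reached the filter through its imatinib arrays. Itgam still enters the mean of the 14 markers. After this scaling 4 of the 14 markers were called higher and 5 lower (limma). The median of all tested genes was 0.16 with equal array medians and -0.47 on the macrophage-marker scale. On that last scale 0 genes of the list were higher (limma; 0 also at an unadjusted p below 0.05) and 25 were lower (73.5%, against 62.6% of all tested genes). With equal array medians 7 were higher and 0 were lower (limma; 1 lower at an unadjusted p below 0.05). The SEs changed on that scale too (for Hspa5 from 0.078 to 0.17), so its calls do not differ by the shift alone. Over all tested genes the split of higher to lower was 554 to 711 on the deposited scale, 1234 to 528 with equal array medians and 112 to 5100 on the macrophage-marker scale.

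Markers of other cells differed between the groups. All 12 epithelial markers were lower, with a summed signal of 7026 to 7178 on the imatinib arrays and 35377 to 36049 on the vehicle arrays; the brightest were the keratin gene Krt8 (log2 difference -2.33) and the desmosome gene Dsp (-2.65). All 5 tested of 9 secretory epithelial markers were lower as well, summed over the 9 at 4389 to 4518 with imatinib and 15440 to 15541 with vehicle, led by the immunoglobulin transporter gene Pigr (-2.46) and the granule lectin gene Zg16 (-1.40); Spdef, Ern2, Clca1 and Reg3g lay below the filter. Of 9 tested fibroblast markers 7 were lower (summed signal over 10 genes 3569 to 3935 with imatinib and 7412 to 8150 with vehicle; Col3a1 -1.02 and Sparc -1.04), with Pdgfra below the filter. Of 7 plasma cell markers, Sdc1 (-1.31) and Ighm (-0.62) were lower and the other 5 were not called. Their summed signal was 39798 to 41541 with imatinib and 42117 to 44663 with vehicle. The brightest, the joining chain gene Jchain, had 32838.3 and 31596 with imatinib and 29297.5 and 31786.5 with vehicle. These overlap, and Jchain was not called (0.08, or -0.37 on the macrophage-marker scale).

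Of 14 macrophage markers 10 were higher, among them Itgam, whose vehicle mean lay below the filter signal. The 14 summed to 169287 to 176634 with imatinib and 142520 to 142734 with vehicle. The brightest, Csf1r (0.12, or -0.33 on the macrophage-marker scale) and C1qb (-0.09, or 0.11 with equal array medians), were not called. No T cell marker of 6 (summed at 2494 to 2719 with imatinib and 2727 to 3221 with vehicle; Zap70 -0.21, Cd3g -0.14, or 0.05 with equal array medians) and no mast cell marker of 3 tested (summed over 6 genes at 491.1 to 509.8 with imatinib and 642.3 to 700.8 with vehicle; Gata2 0.02, Mcpt2 -0.67; Fcer1a, Mcpt1 and Tpsb2 below the filter) was called by limma, with 1 of each list at an unadjusted p below 0.05. The 3' to 5' signal ratio of the Gapdh control, which reads RNA quality, was 2.34 and 2.09 on the imatinib arrays and 2.91 and 2.76 on the vehicle arrays. The part of these shifts in the results below was not tested. In pooled cells, fewer cells of a type and less RNA per cell cannot be told apart.

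**Figure D2:**
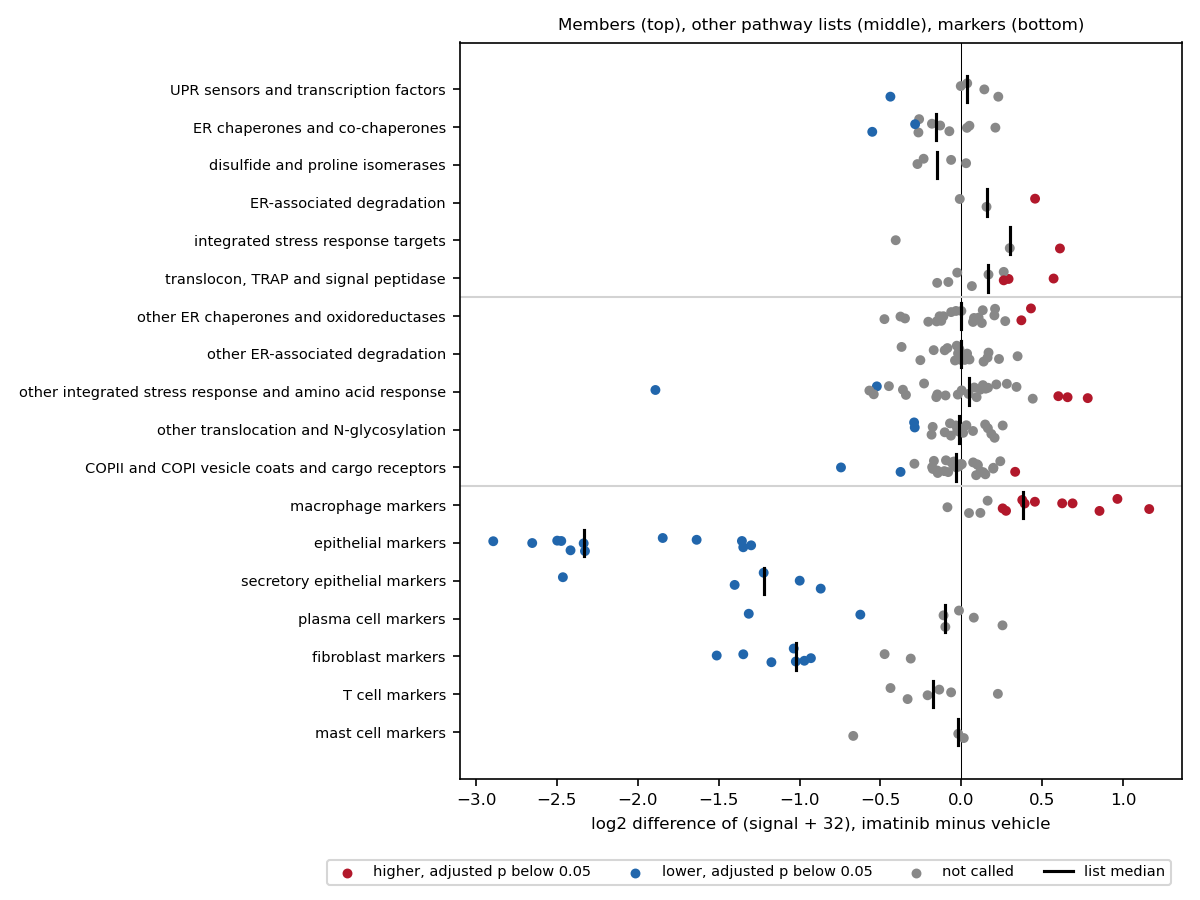
Log2 difference, imatinib minus vehicle (x axis), of each tested gene (points, coloured by call) and the median (bar) of 6 role groups of the list, 5 further pathway lists and 7 marker lists (y axis). The medians of the 5 further pathway lists lie between -0.03 and 0.05, with single genes from -1.89 (Cth) to 0.78 (Atf3), while the epithelial median is -2.33; on the macrophage-marker scale all points would lie 0.45 further to the left, and with equal array medians further to the right.

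Among the sensors and transcription factors, only Atf4 passed the test. Atf4, the effector of the PERK branch and of the amino acid response, had signals of 4137 and 4565 on the imatinib arrays and 6508 and 5345 on the vehicle arrays. Both imatinib signals lay below both vehicle signals. Atf4 fell by 0.44 on the log2 scale (SE 0.10, limma adjusted p = 0.013). The probe set used carries the suffix that marks possible matches to other transcripts, and a second Atf4 probe set without it gave 2346 and 1942 with imatinib and 2220 and 2319 with vehicle, a log2 difference of -0.09, with overlapping groups. Read from that second probe set Atf4 was not called (adjusted p = 0.63), nor was it without imatinib array 1 (0.064) or without vehicle array 1 (0.11), or with equal array medians (-0.24, adjusted p = 0.30).

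Xbp1, whose mRNA IRE1 splices into its active form, had 9588 and 9031 with imatinib and 8814 and 9330 with vehicle. These overlap, and the log2 difference was 0.04 (95% interval -0.13 to 0.20), or -0.41 on the macrophage-marker scale, where it was called lower. Its other 3 probe sets gave 0.22, -0.09 and -0.39, so the signs differed within the gene; these arrays were not used to tell spliced from unspliced Xbp1. Atf6, the sensor that is cut to release a transcription factor, had 848.2 and 844.6 with imatinib and 699.3 and 735.7 with vehicle. Its arrays did not overlap, and its log2 difference of 0.23 did not pass (adjusted p = 0.19) except with equal array medians (0.42, adjusted p = 0.045); it was -0.22 on the macrophage-marker scale.

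Eif2ak3, the gene for PERK, had 636.1 and 658.5 with imatinib and 660.4 and 514.6 with vehicle. Ddit3, the gene for the pro-apoptotic factor CHOP, had 628.4 and 532.6 with imatinib and 529.1 and 635.0 with vehicle. In both genes the groups overlapped, with log2 differences of 0.14 (95% interval -0.16 to 0.45) for Eif2ak3 and -0.0028 (-0.31 to 0.30) for Ddit3, or -0.31 and -0.45 on the macrophage-marker scale. Ern1, below the filter, had 59.4 and 52.2 with imatinib and 76.0 and 47.6 with vehicle, which also overlap.

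**Figure D3:**
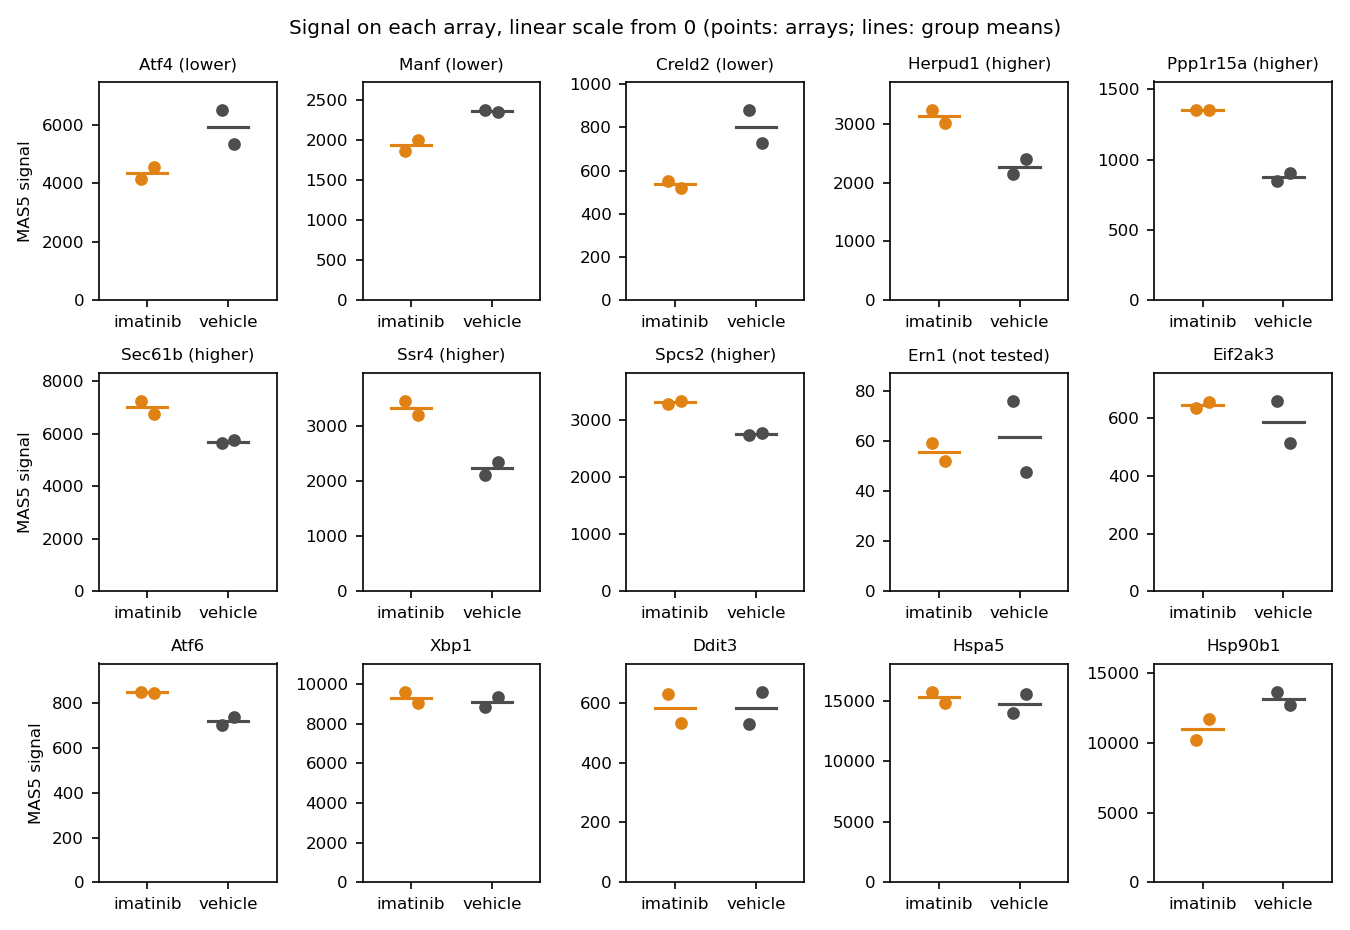
Signal on each array (y axis, MAS5 signal on a linear scale from 0) in the imatinib and vehicle groups (x axis; points are arrays, lines are means of 2) for the 8 called genes, the sensors and transcription factors, Hspa5 and Hsp90b1. The 8 called genes have separated groups, while Xbp1, Ddit3, Eif2ak3, Ern1 and Hspa5 overlap.

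The 10 ER chaperones and co-chaperones had a median log2 difference of -0.16 (0.04 with equal array medians), with 2 lower (20%, against 8.73% of all tested genes) and none higher (against 6.80%). The number lower was 3 under quantile normalization, 0 with equal array medians and 10 on the macrophage-marker scale. In the same order, 690, 528 and 5100 (62.6%) of all 8145 tested genes were lower. Hspa5, which encodes the chaperone BiP and is the usual readout of ER stress, had signals of 15697 and 14823 on the imatinib arrays and 13977 and 15512 on the vehicle arrays. The groups overlapped and the log2 difference was 0.05 (95% interval -0.12 to 0.22), or -0.08 under quantile normalization and -0.40 on the macrophage-marker scale, where it was called lower. Its second probe set gave -0.14. Hsp90b1, the gene for the ER chaperone GRP94, had 10247 and 11743 with imatinib and 13657 and 12729 with vehicle. Both imatinib signals of Hsp90b1 were below both vehicle signals, but the difference of -0.26 did not pass (adjusted p = 0.059). It passed without imatinib array 2 (-0.36, adjusted p = 0.011), under quantile normalization (-0.41, adjusted p = 0.0064), with the 60th percentile filter (adjusted p = 0.046), with a robust prior (adjusted p = 0.045) and on the macrophage-marker scale (-0.71, adjusted p = 0.00011). With equal array medians the difference was -0.07 (adjusted p = 0.82). The second Hsp90b1 probe set had a difference of the other sign (0.06).

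Creld2, a disulfide isomerase-like gene induced by ER stress, had 553.1 and 519.7 with imatinib and 879.9 and 726.9 with vehicle. The groups were well separated, and Creld2 fell by 0.55 (SE 0.13, limma adjusted p = 0.014). Manf, a secreted stress-induced cofactor of BiP, had 1866 and 1998 with imatinib and 2373 and 2347 with vehicle, and fell by 0.29 (SE 0.09, adjusted p = 0.049). The Creld2 call was lost without imatinib array 2 (adjusted p = 0.056) and without vehicle array 1 (0.10). The Manf call was lost whichever array was left out (adjusted p = 0.066 to 0.23), and neither gene was called with equal array medians (-0.36 for Creld2 and -0.09 for Manf).

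The other 6 chaperone genes did not pass. The co-chaperone Dnajb11 (-0.26) and the calcium-binding Calu (-0.18, or 0.01 with equal array medians) had both imatinib signals below the vehicle signals, and Sdf2l1 (0.21, or -0.24 on the macrophage-marker scale) had both above. Hyou1, an ER nucleotide exchange factor (-0.13), the BiP co-chaperone Dnajb9 (0.04) and Dnajc3 (-0.07), which also inhibits PERK, overlapped between the groups; with equal array medians Hyou1 (0.06) and Dnajc3 (0.12) were positive, and under quantile normalization and on the macrophage-marker scale Dnajb9 was negative. Of the 4 isomerases none was called (limma, with 1 at an unadjusted p below 0.05, Pdia6): the disulfide isomerases Pdia4 (-0.27) and Pdia6 (-0.23) had separated arrays, while P4hb (0.03, or -0.0014 under quantile normalization) and the proline isomerase Ppib (-0.06, or 0.14 with equal array medians) overlapped. A second Ppib probe set gave 0.14, with both imatinib signals above both vehicle signals. The isomerase median was -0.15, or 0.05 with equal array medians.

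The promoters of chaperone genes carry the ER stress element (ERSE), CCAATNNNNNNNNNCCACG, which ATF6 and XBP1 are known to bind with NF-Y. RefSeq promoter windows (GRCm38.p6, 250 bases before to 50 after the start) were matched for 32 of the 38 genes; Atf6, Hyou1, Manf, Sec11c, Sec61a1 and Ssr2 were not matched. On either strand, 5 of the 32 windows held ERSE (15.6%, against 0.137% of 27025 genes in the table). They are shown because they include the pathway's usual readout and the chaperone with the largest fall; each is 5' to 3' on the gene's strand, with ERSE in capitals, and in Creld2 and in the second site of Hsp90b1 the element lies on the opposite strand.
Hspa5, chr2:34771980-34772088, plus strand: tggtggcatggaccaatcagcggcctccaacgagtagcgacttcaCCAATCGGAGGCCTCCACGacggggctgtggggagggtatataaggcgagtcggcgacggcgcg
Hsp90b1, chr10:86705488-86705694, minus strand: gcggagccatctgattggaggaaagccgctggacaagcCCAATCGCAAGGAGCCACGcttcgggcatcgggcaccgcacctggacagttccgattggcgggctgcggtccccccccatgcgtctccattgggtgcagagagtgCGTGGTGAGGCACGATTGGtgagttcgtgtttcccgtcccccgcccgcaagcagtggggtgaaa
Pdia6, chr12:17266446-17266554, plus strand: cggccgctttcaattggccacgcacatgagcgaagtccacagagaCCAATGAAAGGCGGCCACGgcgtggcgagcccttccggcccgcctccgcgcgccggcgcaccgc
Dnajc3, chr14:118937782-118937890, plus strand: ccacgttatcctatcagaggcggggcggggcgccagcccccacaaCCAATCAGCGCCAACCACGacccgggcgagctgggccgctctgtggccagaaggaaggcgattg
Creld2, chr15:88819475-88819583, plus strand: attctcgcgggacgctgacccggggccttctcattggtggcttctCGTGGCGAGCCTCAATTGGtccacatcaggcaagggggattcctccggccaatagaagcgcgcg

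The 5 genes with ERSE ran from -0.55 (Creld2) to 0.05 (Hspa5), with 1 lower and none higher, and a median of -0.23. The 23 tested genes with a window but no ERSE had a median of 0.07, with 5 higher and 1 lower. Of all tested genes, 6.80% were higher and 8.73% lower. The 23 include Herpud1 and Dnajb11, whose windows hold a shorter form of the element (ERSE-II, below). With equal array medians the genes with ERSE had 0.25 (Hspa5), 0.12 (Dnajc3), -0.04 (Pdia6), -0.07 (Hsp90b1) and -0.36 (Creld2). The difference between the genes with and without ERSE was not tested. ERSE ends in the core CCACG, which by itself was found in 25 of the 32 windows (78.1%, against 35.5% of the genes in the table).

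**Figure D4:**
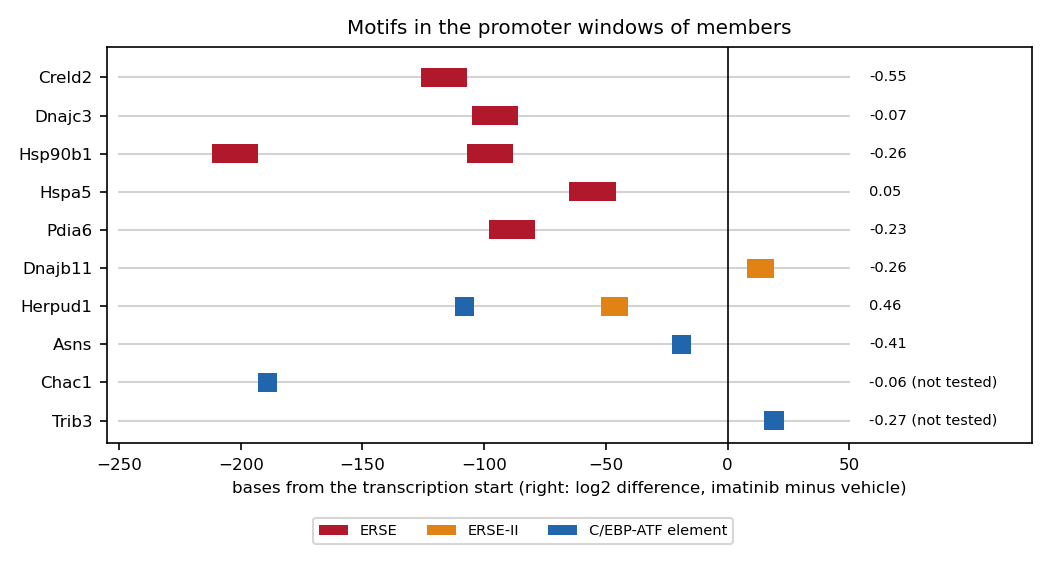
Position of ERSE, ERSE-II and the C/EBP-ATF element (bars) from 250 bases before to 50 after the transcription start (x axis, bases) in the promoter windows of the 10 genes that hold any of them (y axis), with each gene's log2 difference, imatinib minus vehicle, at the right. ERSE lay between positions -212 and -47 from the start in 5 chaperone and isomerase genes. Of these, only Hspa5 has a positive difference on the deposited scale, which is negative under quantile normalization and on the macrophage-marker scale. With equal array medians that of Dnajc3 is positive too (0.12).

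Of the ER-associated degradation genes, Herpud1 rose. Herpud1, a membrane protein of the ligase complex that returns misfolded proteins to the cytosol, had 3230 and 3018 with imatinib and 2145 and 2394 with vehicle. The groups were separated by more than the spread within either, and Herpud1 rose 1.37-fold (log2 difference 0.46, SE 0.09, limma adjusted p = 0.0056), and its second probe set moved the same way (0.35). The call held whichever array was left out (adjusted p = 0.0059 to 0.044). On the macrophage-marker scale the difference was 0.01 and was not called. Sel1l, the adaptor of the same ligase (0.16, or -0.29 on the macrophage-marker scale), and Edem1, which extracts glycoproteins for degradation (-0.0090, or 0.19 with equal array medians), did not pass.

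The Herpud1 promoter window held ERSE-II, a shorter form of the element (ATTGGNCCACG), and the C/EBP-ATF element, which ATF4 can bind (TGATGNAA). ERSE-II was found in 2 of the 32 windows, Herpud1 and Dnajb11 (6.25%, against 0.0444% of the genes in the table), and was searched for after the data had been seen. Both are in capitals, the C/EBP-ATF element (on the opposite strand) first. The stretch is shown because Herpud1 was the one called gene of the list with either element.
Herpud1, chr8:94386272-94386428, plus strand: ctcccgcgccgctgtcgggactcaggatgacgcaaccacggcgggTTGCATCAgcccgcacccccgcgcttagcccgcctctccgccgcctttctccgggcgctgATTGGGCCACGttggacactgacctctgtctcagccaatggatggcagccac

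Of the 5 listed targets of the integrated stress response, Ppp1r15a rose, Asns and Sesn2 were not called and Trib3 and Chac1 were too dim to test. Ppp1r15a, which encodes GADD34, the phosphatase subunit that ends the response by dephosphorylating eIF2alpha, had 1354 and 1351 on the imatinib arrays and 846.4 and 903.8 on the vehicle arrays. Its groups lay far apart relative to their spread. Ppp1r15a rose 1.53-fold (log2 difference 0.61, SE 0.10, limma adjusted p = 0.0016), the largest rise of the list, and the call held whichever array was left out (adjusted p = 0.0035 to 0.011). On the macrophage-marker scale the difference was 0.16 and was not called.

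Asns, the asparagine synthetase gene and a standard ATF4 target, had 160.9 and 125.3 with imatinib and 247.7 and 158.3 with vehicle. The groups overlapped, and the difference of -0.41 had a 95% interval of -0.93 to 0.12. A dimmer Asns probe set had 51.2 and 74.7 with imatinib and 112.4 and 104.8 with vehicle, without overlap (-0.58). Both its imatinib signals lay below the filter signal of 79.75. Sesn2, a stress-induced inhibitor of mTORC1, had 242.8 and 284.6 with imatinib and 246.8 and 173.9 with vehicle. These overlap (0.30, 95% interval -0.13 to 0.73, or -0.15 on the macrophage-marker scale). A second Sesn2 probe set gave -0.05, also with overlap. Trib3, a pseudokinase induced by ATF4 and CHOP, had 17.3 and 61.6 with imatinib and 55.4 and 44.9 with vehicle. Chac1, a glutathione-degrading enzyme induced by ATF4, had 37.3 and 63.2 with imatinib and 77.1 and 33.9 with vehicle. Both lay below the filter with overlapping arrays and were not called without the filter (adjusted p = 0.73 for Trib3 and 0.95 for Chac1).

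The C/EBP-ATF element was found in 4 of the 32 windows, those of Asns, Chac1, Trib3 and Herpud1 (12.5%, against 4.51% of the genes in the table). In Trib3 it lay after the start. The Asns and Chac1 sites are shown, in capitals, because they lie before the start in genes that ATF4 is known to induce; in Chac1 it is on the opposite strand.
Asns, chr6:7693210-7693277, minus strand: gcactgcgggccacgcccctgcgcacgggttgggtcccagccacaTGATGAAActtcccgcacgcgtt
Chac1, chr2:119351004-119351101, plus strand: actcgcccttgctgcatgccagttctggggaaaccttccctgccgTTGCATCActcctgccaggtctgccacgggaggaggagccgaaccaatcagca

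The genes that carry proteins into the ER held 3 of the 5 rises. Of 9 tested genes of the Sec61 channel, the translocon-associated protein (TRAP) complex and signal peptidase, 3 were higher (33.3%, against 6.80% of all tested genes) and none lower (against 8.73%), with a median of 0.17. Under quantile normalization 1 of the 9 was higher, and the macrophage-marker scale gave a median of -0.28 with 6 lower. Of all 8145 tested genes, 565 were higher under quantile normalization and 62.6% were lower on the macrophage-marker scale. In a further list of 19 translocation and N-glycosylation genes, 0 were higher and 2 lower, with a median of -0.01 (0.19 with equal array medians). Ssr4, the TRAP delta subunit, had 3445 and 3199 with imatinib and 2106 and 2348 with vehicle. Both imatinib signals were far above both vehicle signals, and Ssr4 rose 1.49-fold (log2 difference 0.57, SE 0.09, limma adjusted p = 0.0013). The probe set used carries the shared-transcript suffix. A dimmer one without it had 224.0 and 82.0 with imatinib and 46.8 and 39.6 with vehicle, a log2 difference of 1.19. Both its vehicle signals lay below the filter signal of 79.75. Its mean reached the filter only through the imatinib arrays, so it adds no support for the rise. The Ssr4 call held whichever array was left out (adjusted p = 0.0017 to 0.011) but not with the mean of its probe sets (0.57, adjusted p = 0.053) or on the macrophage-marker scale (0.12).

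The other TRAP subunits did not pass. Ssr1, the alpha subunit, had 2883 and 2649 with imatinib and 2284 and 2640 with vehicle. These do not overlap but nearly touch (0.17, or -0.28 on the macrophage-marker scale). Other Ssr1 probe sets gave 0.03 and -0.06, with overlapping groups. Ssr2, the beta subunit, had -0.02 (95% interval -0.30 to 0.25) and Ssr3, the gamma subunit, had 0.07 (95% interval -0.13 to 0.26), both with overlapping arrays; Ssr2 was 0.16 with equal array medians and Ssr3 was -0.38 on the macrophage-marker scale. These intervals lie below that of Ssr4, which ran from 0.37 to 0.77, while that of Ssr1 ran to 0.38. The differences between subunits were not tested.

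Sec61b, the beta subunit of the translocation channel, had 7254 and 6763 with imatinib and 5655 and 5769 with vehicle. The groups did not overlap, and Sec61b rose 1.23-fold (log2 difference 0.29, SE 0.08, limma adjusted p = 0.025). The call was lost without imatinib array 1 (adjusted p = 0.13), vehicle array 1 (0.12) or vehicle array 2 (0.076), under quantile normalization (0.21, adjusted p = 0.053) and on the macrophage-marker scale, where the difference was -0.16. A dim probe set that Sec61b shares with Gm10320 had 44.3 and 112.8 with imatinib and 109.0 and 126.0 with vehicle. These overlap, with a difference of the other sign (-0.51). The pore subunit gene Sec61a1 had 2522 and 2307 with imatinib and 2509 and 2593 with vehicle, with overlap (-0.08, or 0.12 with equal array medians). Its other probe sets above the filter gave -0.88 (groups separated), -0.10, 0.01 and 0.22, so the signs differed within the gene. The probe set that Sec61g shares with Gm11575 and Gm10177 had 3038 and 2841 with imatinib and 2954 and 2512 with vehicle, also with overlap.

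Spcs2, a signal peptidase subunit, had 3284 and 3327 with imatinib and 2725 and 2774 with vehicle. The arrays within each group were close, and Spcs2 rose 1.20-fold (log2 difference 0.26, SE 0.08, limma adjusted p = 0.048). The call was lost whichever array was left out (adjusted p = 0.11 to 0.17), and on the macrophage-marker scale Spcs2 was called lower (-0.19, adjusted p = 0.049). Spcs1, its partner subunit, had 3992 and 3687 with imatinib and 3165 and 3219 with vehicle, separated, and just missed the threshold at the same difference (0.26, adjusted p = 0.053), or -0.19 on the macrophage-marker scale. A second Spcs1 probe set had 3443 and 3354 with imatinib and 3142 and 3232 with vehicle, a smaller difference of 0.09. The second Spcs2 probe set gave 0.19. Sec11c, a catalytic subunit of the same enzyme, had 2923 and 3161 with imatinib and 3318 and 3429 with vehicle, separated in the other direction and not called (-0.15, 95% interval -0.33 to 0.03, or 0.05 with equal array medians). Further subunits, named after their values were seen, overlapped between the groups and were not called. These were Spcs3 (0.03, or -0.42 on the macrophage-marker scale) and Sec11a (-0.03, or 0.16 with equal array medians).

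**Figure D5:**
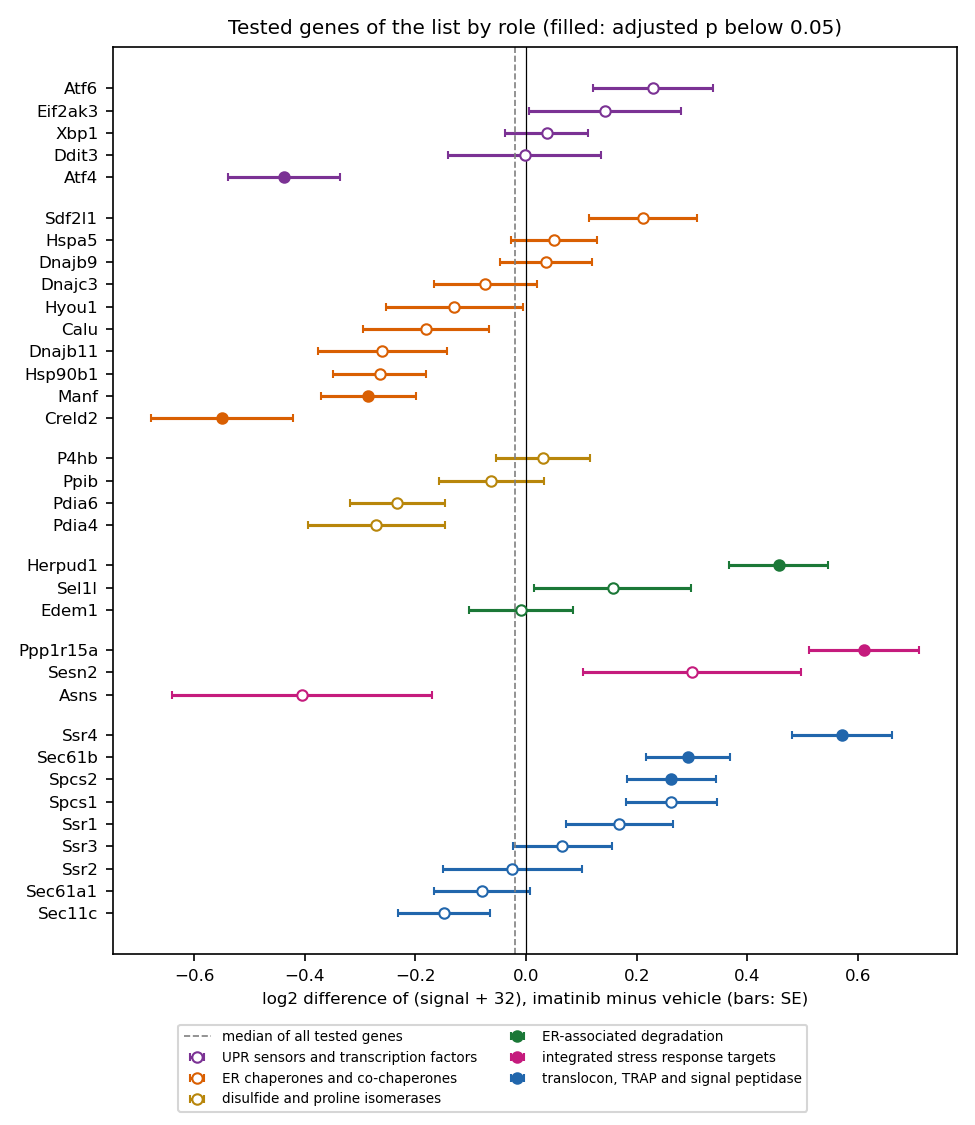
Log2 difference, imatinib minus vehicle (x axis; bars are SE from limma with 2 arrays per group), of the 34 tested genes by role (y axis, colours); filled points have an adjusted p below 0.05 and the dashed line is the median of all tested genes. Ppp1r15a (0.61), Ssr4 (0.57) and Herpud1 (0.46) lie furthest to the right and Creld2 (-0.55) furthest to the left; on the macrophage-marker scale each point lies 0.45 lower, which makes 14 positive differences negative, those of the called Sec61b and Spcs2 among them, and no called gene changes sign with equal array medians.

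Further genes of the same processes were taken in 5 lists. Of 116 tested, 6 were higher and 6 lower (5.17% each, against 6.80% and 8.73% of all tested genes), with a median log2 difference of -0.0021 (-0.03 to 0.05 by list). In the integrated stress response list 3 of 27 were higher and 2 lower. The stress-induced transcription factor Atf3 rose 1.72-fold (10723 and 10301 with imatinib against 5918 and 6281 with vehicle, adjusted p = 3.8e-05), and it was the 1 pathway gene still higher on the macrophage-marker scale (0.33). Slc3a2, the heavy chain of amino acid transporters (1.58-fold), and the mTORC1 inhibitor gene Ddit4 (1.52-fold) rose too, but were not called on that scale (0.21 and 0.15 in log2). Cth, the cystathionine gamma-lyase gene, fell by 1.89 (89.4 and 121.8 with imatinib against 501.0 and 449.6 with vehicle), and the proline synthesis gene Aldh18a1, named after its values were seen to complete the count, fell by 0.52.

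Of 21 other chaperones and oxidoreductases, the disulfide isomerase Pdia3 (1.35-fold, or -0.02 in log2 on the macrophage-marker scale) and the stress-associated ER protein Serp1 (1.29-fold, or -0.08 on that scale) rose and none fell. None of 20 other degradation genes was called (limma; 3 at an unadjusted p below 0.05, namely Syvn1, Ube2g2 and Herpud2, named after their values were seen). The brightest of them were the retrotranslocation channel gene Derl1 (-0.0034, or 0.19 with equal array medians) and Selenos (-0.09, or 0.11 with equal array medians). Of 19 other translocation and N-glycosylation genes, the oligosaccharyltransferase genes Rpn1 and Stt3b fell, both by 0.29, and none rose. Of 29 vesicle coat and cargo receptor genes, Surf4 (-0.74) and Copb2 (-0.38) fell and Tmed10 rose 1.26-fold (-0.12 in log2 on the macrophage-marker scale). The vehicle signals of Surf4 were 3907 and 2591. Rpn1, Surf4, Copb2 and Aldh18a1, and of the rises Slc3a2 and Serp1, were read from probe sets with the shared-transcript suffix. Without such probe sets 6 pathway genes were higher and 2 lower (limma). With equal array medians Cth and Surf4 were the 2 still lower, and Serp1 was not called under quantile normalization (adjusted p = 0.058). Without imatinib array 1 or vehicle array 1 only 3 of all pathway genes were higher, and without imatinib array 2 or vehicle array 1 only 3 and 2 were lower.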

How the data were processed

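Sorted macrophage RNA was measured on 4 single-colour arrays. The authors deposited linear MAS5 signal intensities. The submitters' processing notes name Affymetrix Expression Console, with its version not given in the sources used here; each array had a trimmed mean of about 500.3. Signal below the brightness filter and the number of arrays limit precision. Probe sets were named from the platform annotation: of 22690, 64 were controls, 20380 had 1 symbol, 691 several and 1555 none. A gene was read from its brightest probe set with 1 symbol and tested if its mean log2(signal + 32) reached the 40th percentile (a signal of 79.75). limma 3.58.1 (R 4.3.3; lmFit, eBayes with a mean-variance trend, prior df 8.707, residual df 2) was run on log2(signal + 32), two-sided, with Benjamini-Hochberg adjustment over 8145 genes; a fold change on this scale understates that of dim genes. The test was checked on artificial data.

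The genes and lists were chosen with earlier results of these data known. All 38 genes are accounted for; values on each array are given for called genes, the sensors and transcription factors, Hspa5 and Hsp90b1, and for others where the text turns on them. Up to 4 called genes of each further pathway list (by size of change, or the 2 brightest where none was called) and the 2 brightest of each marker list are named. Promoter windows are from RefSeq (GRCm38.p6), searched on both strands with Python 3.11.15; a match is a description, not a binding site. Alternatives were the pseudocount, the filter, the scaling between arrays, the choice of probe set, the variance model, a replicate block and leaving out each array. Protein tails were not analysed here.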

Additional observations from a re-analysis of the deposited data

How the results depend on the processing

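Ppp1r15a was called in 15 of 16 alternatives, Ssr4 and Herpud1 in 14, Creld2 in 12, Atf4 in 9, Sec61b in 8, Manf in 7 and Spcs2 in 6. The 14 of Ssr4 include the fit without shared-transcript suffixes, read from its dimmer probe set. That probe set reached the filter only through the imatinib arrays and adds no support. Ppp1r15a has a single probe set, so the alternatives that change the probe set re-read the same values. Over all genes, 554 were higher and 711 lower; the higher count was 356 with no filter, 1234 with equal array medians, 112 on the macrophage-marker scale, 199 with no variance trend and 291 to 476 with 1 array left out (291 without imatinib array 1 and 349 without vehicle array 1), and the lower count was 5100 on the macrophage-marker scale, 528 with equal array medians, 517 with no variance trend and 506 to 664 with 1 array left out. The 5 listed genes higher became 3 with no filter, quantile normalization, the mean of probe sets or the replicate block, 2 with no variance trend, 0 on the macrophage-marker scale and 3 to 4 with 1 array left out; the 3 lower became 1 with no filter, 0 with equal array medians or no variance trend, 25 on the macrophage-marker scale and 0 to 2 with 1 array left out. With no variance trend the Herpud1 and Atf4 calls were among those lost. Of the further pathway genes, 6 higher became 11 with equal array medians, 1 on the macrophage-marker scale or with no variance trend and 3 to 6 with 1 array left out, and 6 lower became 3 with no filter, 2 with equal array medians, no variance trend or probe sets without shared-transcript suffixes, 89 on the macrophage-marker scale and 2 to 4 with 1 array left out.

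The median log2 difference of the listed genes, 0.01, was 0.21 with equal array medians, -0.44 on the macrophage-marker scale, -0.036 with the mean of probe sets and -0.026 to 0.077 with 1 array left out. In the same order, the sensor median was 0.24, -0.41, -0.054 and -0.0060 to 0.11; the degradation median 0.34, -0.29, 0.22 and 0.054 to 0.26; the translocation median 0.37, -0.28, 0.066 and 0.066 to 0.27; and the isomerase median 0.049, -0.60, -0.24 and -0.21 to -0.053, with -0.23 from probe sets without shared-transcript suffixes. The chaperone median was 0.035 with equal array medians, -0.61 on the macrophage-marker scale, -0.22 without those suffixes and -0.24 to -0.074 with 1 array left out. The median of stress response targets was -0.063 with no filter, -0.15 on the macrophage-marker scale and 0.082 to 0.52 with 1 array left out. On the macrophage-marker scale 14 positive differences became negative: those of Eif2ak3 (-0.31), Atf6 (-0.22), Sel1l (-0.29), Sesn2 (-0.15), Spcs1 (-0.19), Xbp1 (-0.41), Hspa5 (-0.40), Dnajb9 (-0.41), Sdf2l1 (-0.24), P4hb (-0.42), Sec61b (-0.16), Ssr1 (-0.28), Ssr3 (-0.38) and Spcs2 (-0.19).

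Arrays share replicate numbers only by name: deviations of same-numbered arrays correlated at -0.057, and the replicate block gave 430 genes higher and 635 lower, with 3 listed genes higher and 2 lower. The scalings shift every gene by construction. Equal array medians also changed the SEs (Xbp1 from 0.075 to 0.17, Hspa5 from 0.078 to 0.17, Atf4 from 0.10 to 0.16). Calls on that scale thus rest on another spread as well as on a shift. The cause of the other changes was not tested. No group has enough arrays for a test of outlying arrays, and 3 listed genes were too dim to test.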
